A study of Arabidopsis thaliana with 12 samples.

Results

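The YABBY family of Arabidopsis thaliana was followed through early flower development. Its 6 genes are FILAMENTOUS FLOWER (FIL, AT2G45190, listed by RefSeq as AFO), YABBY2 (YAB2, AT1G08465), YABBY3 (YAB3, AT4G00180), YABBY5 (YAB5, AT2G26580), INNER NO OUTER (INO, AT1G23420) and CRABS CLAW (CRC, AT1G69180). The members were taken by locus, as every probe assigned to these genes on the array, and the family was chosen with earlier results of these data known. This gave 20 probes for 6 of the 28327 loci on the array. All 6 loci were among the 20906 loci tested, through 19 of the 20 probes.

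Inflorescences came from plants with the alleles ap1-1 and cal-1 and a pAP1:AP1-GR transgene, in which APETALA1 is fused to the glucocorticoid receptor, is driven by its own promoter, and becomes active when dexamethasone (DEX) is given. All samples shared this genotype. Extracts of days 2, 4 and 8 came from plants given 2 µM DEX daily, and extracts of day 0 from tissue taken before induction, which according to the methods of the study had received a mock solution. Plants were grown at 20 °C in long days, and several plants were pooled for a sample according to the same methods. The 12 arrays with 2 colours compared day 2 with day 0, day 4 with day 2 and day 8 with day 4, with 4 arrays for each step, 1 from each of 4 biologically independent replicate sets. The later days had no mock-treated counterpart on the arrays, so that DEX, age and developmental progress cannot be told apart.

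YABBY proteins are plant transcription factors with a zinc finger and an HMG-like YABBY domain. FIL, YAB2, YAB3 and YAB5 are known as vegetative YABBY genes, expressed on the abaxial (lower) side of leaves and floral organs, where they act with LEUNIG-type co-repressors in blade growth and in keeping meristem genes off. CRC and INO have narrower roles: CRC acts in carpel growth, floral meristem termination and nectary formation, and INO in growth of the outer integument of the ovule.

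Between 55.7% and 73.6% of probes were well above background per channel. The array of day 8 over day 4 in set 2 stood apart: it had both the highest shares and 1340 probes with outlier marks, against 19 to 110 on the other arrays. The marker lists moved as follows. Of 4 shoot meristem markers, 0 were called at the first and middle steps and 3 were lower at the last step, and their mean ratio per array was between -1.63 and -0.99 there (STM -1.06, CLV1 -1.13 and CLV3 -2.18). Of 3 touch-induced genes, 2 were higher at the first step, 2 were lower at the middle step and 2 were higher at the last step (TCH3 at 4.00, -2.84 and 1.503, TCH4 at 2.48, -1.86 and 1.90), and their mean ratio per array was between 0.63 and 2.94, between -2.38 and -1.33 and between 0.61 and 1.91. The tapetum markers DYT1 and AMS, which act in anthers, were both higher at the last step, by 4.38 and 2.14 (standard errors 0.39 and 0.65). The change of AMS at the middle step was 0.0, and whether its early signals lay above background is not given here. MS1 and ATA7 were not tested because they were not well above background. None of 3 leaf photosynthesis markers was called at any step. The part of any of these in the results below was not tested. In whole inflorescences, fewer cells of a type and less RNA per cell cannot be told apart.

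Changes are given as log2 of later over earlier day ± the standard error from limma (n = 4 arrays a step). Calls required a Benjamini-Hochberg adjusted p under 0.05 together with 1.8-fold or more, in the brightest probe of the gene. Differences between steps were called by the adjusted p alone, with no fold minimum. All 6 members were called over the series by the moderated F test, with adjusted p-values between 4.79e-08 for CRC and 1.31e-05 for INO, where 26.0% of all loci tested were called.

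CRC had the largest increase among the 6 genes. By replicate set 1 to 4, its ratio of day 2 over day 0 was -0.58, -0.82, -0.51 and -0.17, its ratio of day 4 over day 2 was 3.41, 2.05, 3.76 and 2.45, and its ratio of day 8 over day 4 was 2.78, 3.38, 3.50 and 3.06. All 4 arrays were thus below 0 at the first step and above 0 at both later steps. CRC rose 7.55-fold at the middle step (2.92 ± 0.21, limma adjusted p = 1.31e-06) and 9.05-fold at the last step (3.18 ± 0.21, adjusted p = 2.07e-07). At the first step the estimate was -0.52 ± 0.21 and did not pass the test (adjusted p = 0.0543). The other CRC probes did pass it there, at -0.59 (adjusted p = 0.0276) and -0.58 (adjusted p = 0.0355), but stayed under 1.8-fold. Added up within each set, the level at day 8 was 5.57 ± 0.89 above that of day 0 (SD, n = 4 sets), or 47.6-fold, with a range of 4.61 to 6.74. The last and middle steps differed by 0.26 ± 0.29, which did not pass the test (adjusted p = 0.476), although the last step spans 4 days and the middle step 2 days. The processed signal of the brightest CRC probe had a median of 599 over 2 channels at day 0, 402 over 6 at day 2, 3367 over 8 at day 4 and 24427 over 4 at day 8, and every one of these channels was well above background. The dye orientation showed at the middle step: both arrays with day 4 in Cy5 (sets 1 and 3) had higher ratios than both with day 4 in Cy3.

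**Figure D1:**
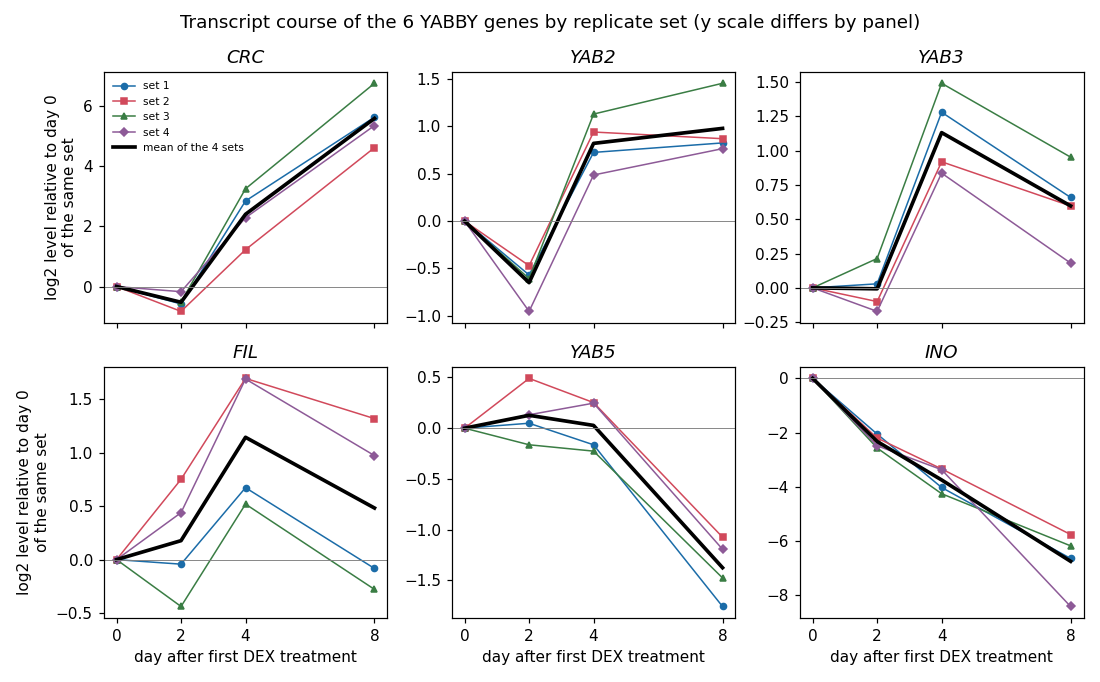
Log2 level of each YABBY gene relative to day 0 of the same set, against the day after the first DEX treatment, with thin lines for the 4 replicate sets and a thick line for their mean. CRC reached 5.57 on average at day 8 and INO -6.75, where 2 of 4 INO channels at day 8 were not well above background, whereas the mean of the other genes stayed between -1.37 and 1.14.

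INO fell at every step. By set 1 to 4, its ratio of day 2 over day 0 was -2.06, -2.20, -2.57 and -2.49, its ratio of day 4 over day 2 was -1.97, -1.14, -1.69 and -0.88, and its ratio of day 8 over day 4 was -2.62, -2.42, -1.92 and -5.05. All 12 arrays were below 0. The changes were -2.33 ± 0.38 (5.02-fold lower, limma adjusted p = 0.000323), -1.42 ± 0.38 (2.68-fold lower, adjusted p = 0.0145) and -3.00 ± 0.38 (8.02-fold lower, adjusted p = 3.30e-05). The call at the middle step was lost without set 1 (adjusted p = 0.126), without set 3 (adjusted p = 0.0962) and when dim probes were kept in the test (adjusted p = 0.0541). The size of the last step rested on low signals. The brightest probe had a median processed signal of 1914 over 2 channels at day 0, 394 over 6 at day 2, 148 over 8 at day 4 and 23.8 over 4 at day 8. At day 8 only 2 of the 4 channels were well above background, those labelled with Cy5. In set 4 the day 8 signal was 4.76, against 158 at day 4 of the same array, and without set 4 the last step was -2.29. With another background correction (normexp and loess without marked spots) the last step was -0.84, just under the 1.8-fold minimum, while the first step remained called at -1.71. Over days 0 to 8, INO was called lower at -6.75 ± 0.66 (adjusted p = 6.28e-06), and at -3.55 with that correction (adjusted p = 8.71e-06).

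All 3 INO probes were called lower at all 3 steps. The dimmest of them was well above background in 2 of 2 channels at day 0, 6 of 6 at day 2, 1 of 8 at day 4 and 1 of 4 at day 8, so that its later ratios compare mostly background. CRC and INO moved in opposite directions at the middle and last steps on every array: INO minus CRC was between -5.44 and -3.19 at the middle step and between -8.11 and -5.40 at the last step.

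**Figure D2:**
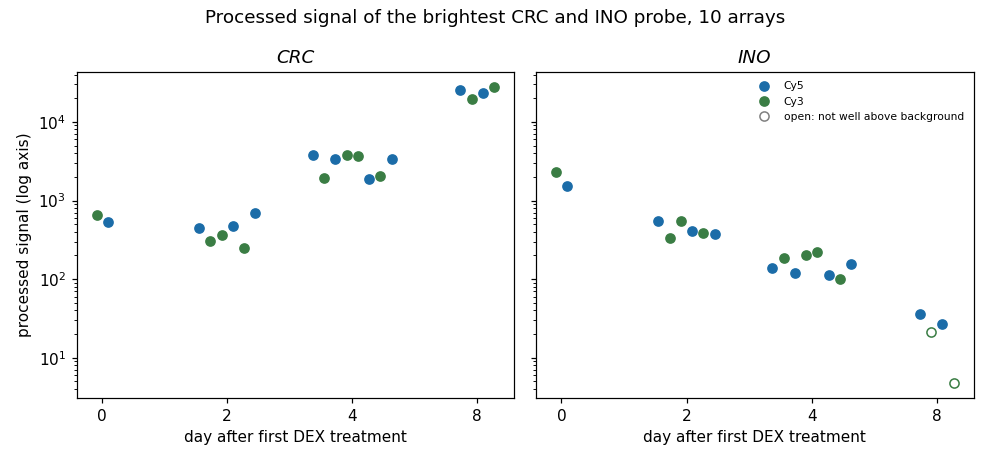
Processed signal, on a log axis, of the brightest CRC probe (left) and INO probe (right) in each channel of the 10 arrays with a matching scanner file, by day after the first DEX treatment. Filled points are well above background, open points are not, and colours give the dye. CRC lay between 19648 and 28031 at day 8, and INO between 4.76 and 36.0.

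FIL, YAB2 and YAB3 shared an increase at the middle step. YAB2, which contributes to lamina growth with its relatives, had ratios of day 4 over day 2 of 1.29, 1.41, 1.74 and 1.44 in sets 1 to 4. YAB3, the closest relative of FIL, had ratios of 1.25, 1.02, 1.28 and 1.01. FIL, which acts in abaxial cell fate and in flower formation, had ratios of 0.71, 0.94, 0.96 and 1.25. All 12 values were above 0. The increases were 2.77-fold for YAB2 (1.47 ± 0.09, limma adjusted p = 6.49e-07), 2.20-fold for YAB3 (1.14 ± 0.10, adjusted p = 7.11e-06) and 1.95-fold for FIL (0.97 ± 0.11, adjusted p = 3.85e-05). The processed signal of the YAB3 probe was low, with a median of 228 over 8 channels at day 4 and 108 over 6 at day 2, and with normexp and loess without marked spots its change was 0.66, below the 1.8-fold minimum (adjusted p = 4.77e-05).

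At the first step the genes parted. YAB2 had ratios of day 2 over day 0 of -0.57, -0.47, -0.61 and -0.95, all below 0. Its change of -0.65 ± 0.09 had an adjusted p of 0.000116 but stayed under 1.8-fold. YAB3 had 0.03, -0.10, 0.21 and -0.17, which scatter around 0 (-0.01 ± 0.10, adjusted p = 0.966). FIL had -0.04, 0.75, -0.44 and 0.44, with both arrays labelled Cy5 for day 2 below 0 and both labelled Cy3 above 0, and its change of 0.18 ± 0.11 did not pass the test (adjusted p = 0.200).

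At the last step FIL had ratios of day 8 over day 4 of -0.75, -0.38, -0.80 and -0.72, and YAB3 had -0.62, -0.32, -0.54 and -0.65. Both had adjusted p-values under the threshold with changes under 1.8-fold, at -0.66 ± 0.11 for FIL (adjusted p = 0.000266) and -0.53 ± 0.10 for YAB3 (adjusted p = 0.000822). With normexp and loess without marked spots the value of YAB3 was -0.16. YAB2 had 0.10, -0.07, 0.33 and 0.28, and its change of 0.16 ± 0.09 did not pass the test (adjusted p = 0.167). On the same arrays the ratio of YAB2 was above that of YAB3 in 4 of 4 cases, by 0.69 ± 0.31 (SD). Over days 0 to 8, YAB2 was 1.97-fold higher (0.98 ± 0.16, adjusted p = 0.000344), a call lost without set 3 (0.82). YAB3 was at 0.60 ± 0.18 (adjusted p = 0.0150, under 1.8-fold) and FIL at 0.48 ± 0.19 (adjusted p = 0.0513).

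YAB5 followed another course. Its ratios of day 2 over day 0 were 0.05, 0.49, -0.16 and 0.13, and those of day 4 over day 2 were -0.21, -0.24, -0.06 and 0.11, so that neither step had all arrays on one side of 0. At the last step its ratios were -1.59, -1.33, -1.25 and -1.44. YAB5 fell 2.64-fold there (-1.40 ± 0.09, limma adjusted p = 2.48e-07), and its median signal was 416 over 4 channels at day 8, against 1114 over 8 channels at day 4. Over days 0 to 8 it was 2.59-fold lower (-1.37 ± 0.16, adjusted p = 2.80e-05). With normexp and loess without marked spots the change over days 0 to 8 was -0.83, under the 1.8-fold minimum. All 4 YAB5 probes were called lower at the last step, with changes between -1.71 and -1.07.

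**Figure D3:**
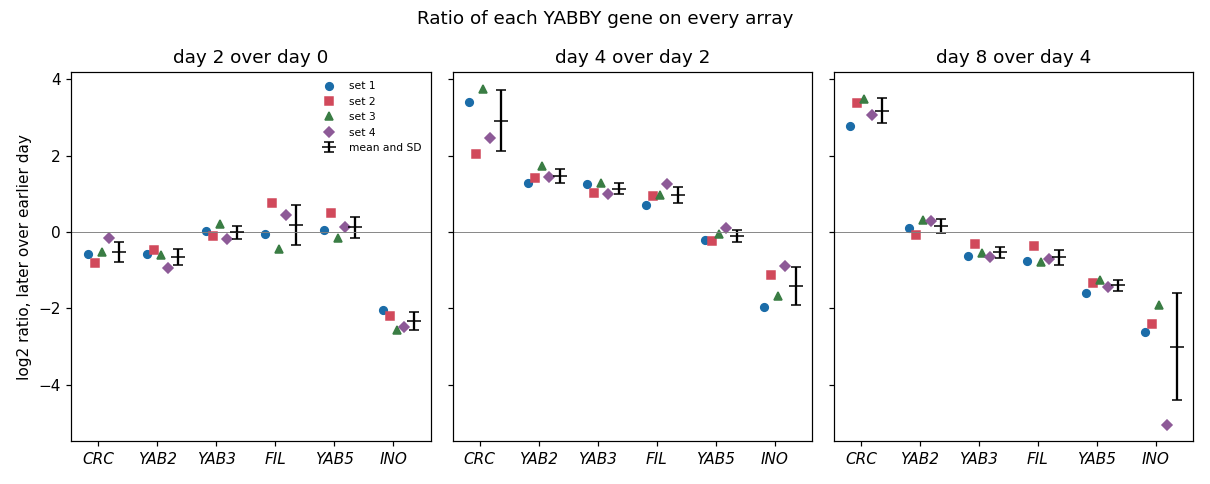
Log2 ratio of the later over the earlier day for each YABBY gene on every array, with 1 panel for each step, 1 symbol for each replicate set, and the mean with its SD (n = 4) in black. At the middle step CRC, YAB2, YAB3 and FIL lay above 0 on all arrays and INO below, and at the last step INO in set 4 lay at -5.05.

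In counts, 0 members were called higher and 1 (INO) lower at the first step, where 8.47% of all loci tested were called higher and 5.42% lower. At the middle step 4 members (CRC, YAB2, YAB3 and FIL) were higher and 1 (INO) lower, where 3.23% of loci were higher and 5.58% lower. At the last step 1 member (CRC) was higher and 2 (YAB5 and INO) lower, against 12.3% and 5.23% of loci. Over days 0 to 8, 2 members (CRC and YAB2) were higher and 2 (INO and YAB5) lower, against 14.9% and 11.2% of loci.

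The steps themselves were compared within the fit. The change of the middle step was above that of the first step for 4 members, FIL (0.79 ± 0.15), YAB2 (2.12 ± 0.13), YAB3 (1.14 ± 0.15) and CRC (3.44 ± 0.29), with adjusted p-values between 7.93e-08 and 0.00116, where 34.5% of loci had a difference in this direction. The change of the last step was below that of the middle step for 5 members, FIL (-1.63 ± 0.15), YAB2 (-1.31 ± 0.13), YAB3 (-1.67 ± 0.15), YAB5 (-1.30 ± 0.13) and INO (-1.58 ± 0.54), with adjusted p-values between 2.79e-06 and 0.0255, where 35.1% of loci had one. The difference of INO was lost without set 2 (adjusted p = 0.0670), without set 4 (adjusted p = 0.0538) and when dim probes were kept in the test (adjusted p = 0.0772), and was 0.16 with normexp and loess without marked spots.

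Probes of a gene gave like values. At each of the 3 steps the tested probes of a member had the same call, and their sign differed only for YAB3 at the first step, between -0.06 and 0.00. The sizes differed most for INO at the last step (-1.18 for the dimmest probe, against -3.31 and -3.00 for the others). Over days 0 to 8, 1 of the 4 YAB5 probes was not called (-0.78, limma adjusted p = 0.0703), while the other 3 were called lower (-1.60 to -1.37). The tested YAB3 probes lay between 0.38 and 0.60 over these days, and the lowest did not pass the test (limma adjusted p = 0.173). A further YAB3 probe, of another transcript model, was not well above background in any channel and was not tested. Slide 2 held sets 1 and 2 of both later steps and slide 3 held sets 3 and 4. At the middle step the mean on slides 2 and 3 was 2.73 and 3.10 for CRC, 1.35 and 1.59 for YAB2, 1.13 and 1.14 for YAB3, 0.828 and 1.102 for FIL, and -1.56 and -1.28 for INO. At the last step it was 3.08 and 3.28 for CRC, -1.46 and -1.34 for YAB5, and -2.52 and -3.49 for INO. All arrays of the first step were on slide 1, so that slide and step cannot be told apart there.

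Over the 12 ratios, the members most alike were FIL and YAB3 (Pearson r = 0.835, Spearman rho = 0.797), and the least alike were YAB5 and CRC (r = -0.617, rho = -0.538). These are descriptions, since neighbouring arrays share extracts. Among 20442 loci, the 3 most alike by Pearson correlation were AT2G07815, TIP2 and CER1 for CRC (0.992 to 0.980), AT5G04690, PG1 and AT1G21730 for YAB3 (0.981 to 0.979), and AT5G15360, AT2G45530 and AT3G56270 for YAB2 (0.980 to 0.977). For FIL they were AT1G66620, AT3G17160 and AT1G14390 (0.977 each), for YAB5 AT5G48900, CYCB2;3 and AT3G16280 (0.980 to 0.978), and for INO AT4G09649, AT2G24960 and AT2G46572 (0.910 to 0.882). This measure ignores a constant shift: AT2G07815 averaged -2.64, -0.35 and -0.22 at the 3 steps, and so fell where CRC rose. By the root mean square difference, a measure added after these values were seen, the nearest loci were AT4G23680 for CRC (0.663), AT1G14390 for FIL (0.195), AT5G04690 for YAB3 (0.212), AT1G12330 for YAB2 (0.316), CHR40 for YAB5 (0.173) and AT4G17990 for INO (0.654).

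The counts of the following lists stand beside the shares of all loci called higher and lower, which were 8.47% and 5.42% at the first, 3.23% and 5.58% at the middle and 12.3% and 5.23% at the last step. Of 9 regulators of CRC, 7 were higher at the first step, 5 at the middle step and 4 at the last step, where 1 was lower, and their median changes were 1.01, 0.87 and 0.49, against -0.10, 0.06 and -0.08 over all loci. AP3, a petal and stamen identity gene, rose by 5.41 ± 0.12 at the first step. SEP3, a cofactor of the floral organ identity proteins, rose by 3.19 ± 0.10, and AG, which specifies stamens and carpels, by 2.88 ± 0.10 at that step. CRC itself was called at the middle and last steps. The list gives no direction of action on CRC, and whether any of its genes acted on CRC here was not tested.

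Of 10 carpel and style genes, 2 were higher and 2 lower at the first step, 5 higher at the middle step, and 4 higher and 1 lower at the last step, with medians of 0.05, 0.71 and 0.35. HEC1, which acts in the transmitting tract and stigma, rose by 2.84 ± 0.59 at the first and 2.76 ± 0.59 at the last step. NGA3, a style gene, was at -0.89 ± 0.21, 2.48 ± 0.21 and 1.96 ± 0.21 at the 3 steps, called lower and then higher. HEC2 rose by 1.11 ± 0.34 at the middle and 2.48 ± 0.34 at the last step. A list drawn up as genes downstream of CRC held TRN2, YUC4, KNU and WUS. Of these 4 genes, only KNU, a repressor of WUS in floral meristem termination, was called. KNU rose by 2.66 ± 0.35 at the middle and 2.12 ± 0.35 at the last step. TRN2, YUC4 and WUS were not called at any step. For WUS and YUC4 some changes had an adjusted p under 0.05 (limma) but stayed under 1.8-fold. These were WUS at the middle (-0.74 ± 0.07) and last step (-0.55 ± 0.07), and YUC4 at the first (-0.71 ± 0.15) and last step (-0.64 ± 0.15). Whether KNU depends on CRC was not tested, so its rise is not read as that of a CRC target. Of 6 nectary genes 4 were tested. BOP1 fell by 0.91 at the first step and MYB21 rose by 2.22 at the last step.

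Of 5 ovule genes, 1 was higher and 2 were lower at the first step. At the middle step 2 were higher and 1 lower, and at the last step 1 was higher and 1 lower. Their medians were 0.0, 0.44 and -0.66. STK, an ovule identity gene, was called lower at all 3 steps, as INO was. Its changes were -2.14 ± 0.36, -1.40 ± 0.36 and -0.94 ± 0.36 (limma adjusted p = 0.000415, 0.0119 and 0.0423). BEL1 was called lower at the first step (-0.86 ± 0.09) and was at 0.63 ± 0.09 at the last step, under 1.8-fold. SUP, which bounds the INO domain in ovules and the stamen whorl in flowers, rose by 5.40 ± 0.12 at the first and 2.59 ± 0.12 at the middle step. NZZ, which acts in sporangium and ovule patterning, rose by 4.59 ± 0.23 at the middle and 3.24 ± 0.23 at the last step. Its change at the first step was 0.0, and whether its early signals lay above background is not given here.

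Of 6 abaxial regulators, 1 was lower at the first step (KAN4, -1.56 ± 0.18), 0 were called at the middle step, and 1 was higher (KAN3, 0.99 ± 0.10) and 1 lower (ETT, -0.94 ± 0.10) at the last step. Of 7 adaxial regulators, 1 was called, AS2, which promotes adaxial fate and rose 2.14-fold at the middle step. Of 4 KNOX meristem genes, 1 was called, STM, which fell by 1.06 at the last step. KNAT1 (-0.57 ± 0.09), KNAT2 (-0.67 ± 0.06) and KNAT6 (-0.68 ± 0.09) also fell there, with an adjusted p under 0.05 (limma) but under 1.8-fold. The KNOX medians were -0.29, -0.15 and -0.68, against -0.10, 0.06 and -0.08 over all loci. The abaxial medians were -0.16, 0.08 and -0.32, and the adaxial ones -0.10, 0.32 and -0.22. Their uncalled changes at the last step included PHB (-0.70), ARF4 (-0.59) and AS1 (-0.57) down and AS2 (0.67) up. Of the 6 LEUNIG- and SEUSS-type partners of YABBY proteins, 0 were called at any step, and their medians were -0.13, 0.02 and -0.24. Among these partners, some changes had an adjusted p under 0.05 (limma) but stayed under 1.8-fold, and were named after their values were seen. They were those of SEU at the first step (-0.49 ± 0.10) and of LUG (-0.29 ± 0.05), SLK3 (-0.33 ± 0.07), SLK2 (-0.20 ± 0.07) and SEU (0.27 ± 0.10) at the last step.

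**Figure D4:**
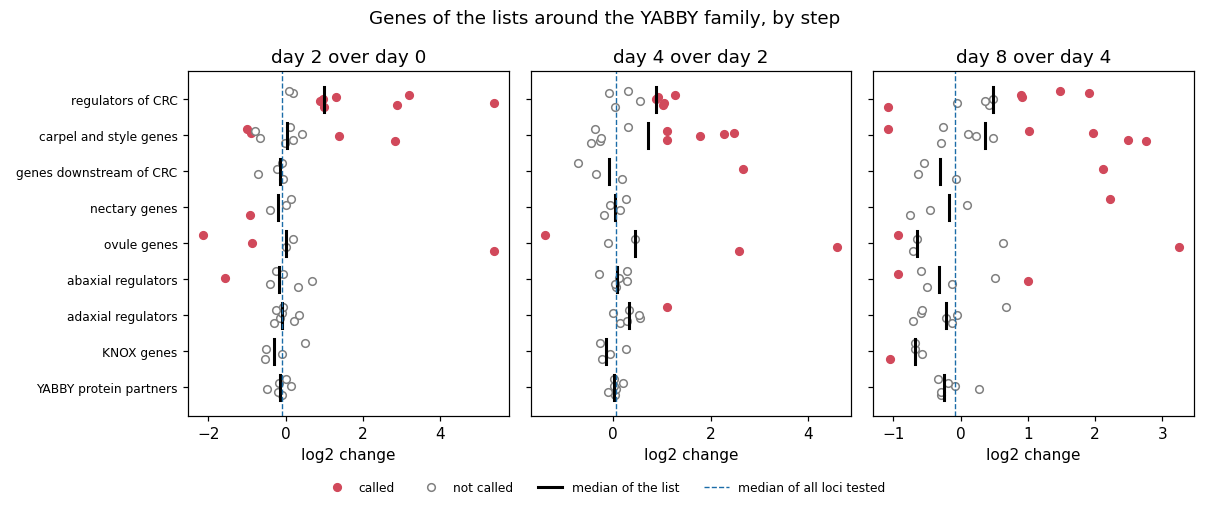
Log2 change of the genes of 9 lists around the YABBY family, with 1 panel for each step. Red points were called, open points were not, the black bar is the median of the list and the dashed line the median of all loci tested. Regulators of CRC had medians of 1.01, 0.87 and 0.49, and the protein partners held no called gene.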

How the data were processed

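Per the file headers, Feature Extraction 10.5.1.1 made the scanner files, in which intensity values of both channels were background subtracted and dye normalised. The authors deposited log10 ratios of Cy5 over Cy3 from these arrays, which were designed on TAIR8 gene models. These deposited ratios were converted here to log2 and turned to later over earlier day. The later day was Cy5 in sets 1 and 3 and Cy3 in sets 2 and 4. On 10 arrays the scanner file held the deposited ratios within 0.0001 (log10). For sets 3 and 4 of day 2 over day 0, 16.3% and 20.2% of probes did, so that all 12 arrays were taken from the ratio table and detection at day 0 rests on sets 1 and 2. Probes were kept (28247) where the scanner software marked 50% or more of the channels of any day as well above background, and 718 marked spots were left out.

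limma 3.58.1 (R 4.3.3) was fitted with 1 coefficient a step and a dye term, with an intensity trend (8 residual degrees of freedom). Each gene is represented by its brightest probe. Levels relative to day 0 are sums of the ratios within a set. The script was tested on simulated data. Same-numbered arrays of neighbouring steps share an extract but were fitted as independent. The correlation of their deviations lay between -0.13 and 0.22, and that of arrays with different numbers between -0.27 and 0.34. These ranges cannot decide whether the numbers mark pairs, since the dye effect was not removed. Same-numbered arrays share the dye orientation, while arrays with different numbers mix equal and opposite orientations. The numbers were not taken as pairs in the fit. With the replicate number as a random block, the consensus correlation was -0.21 and all 18 gene changes kept direction and call. FIL over days 0 to 8 then had a limma adjusted p of 0.00824, still under 1.8-fold. The levels relative to day 0 do add same-numbered arrays, so that their spread by set rests on this numbering. Alternatives covered background correction, centring, filters, dye term, blocks and leaving out each set. Named genes were the 6 members, up to 3 called genes with the largest change from each other list, and for each member the 3 loci with the highest Pearson correlation over the 12 ratios. The loci nearest by root mean square difference and the YABBY partners below 1.8-fold were named outside this rule, after their values were seen. So were BEL1 and the KNOX genes and abaxial and adaxial regulators below 1.8-fold. The same holds for TRN2, YUC4 and WUS, the uncalled genes listed with KNU. The members and lists were chosen with earlier results of these data known. Gene symbols come from a TAIR10.1 table. As builds differ, no coordinates are given. The number of arrays limits the precision.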

Additional observations from a re-analysis of the deposited data

Results flagged for a closer look

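The changes of neighbouring steps differed for several members by the test of the difference itself (limma, Benjamini-Hochberg over all probes tested). Middle step minus first step was 0.79 for FIL (adjusted p = 0.00116), 2.12 for YAB2 (adjusted p = 7.93e-08), 1.14 for YAB3 (adjusted p = 4.26e-05) and 3.44 for CRC (adjusted p = 1.32e-06). Last step minus middle step was -1.63 for FIL (adjusted p = 5.27e-06), -1.31 for YAB2 (adjusted p = 7.85e-06), -1.67 for YAB3 (adjusted p = 2.79e-06), -1.30 for YAB5 (adjusted p = 8.60e-06) and -1.58 for INO (adjusted p = 0.0255). The steps compared share the extracts of day 2 or day 4, and the last step is the longer one. In none of the 18 groups of 4 arrays (6 genes at 3 steps) was the highest or lowest array far enough from the others to pass Dixon's criterion, INO in set 4 at the last step included.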

How the results depend on the processing

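With the normexp background correction planned at the outset, fewer members were called. On 10 arrays, 1 was called at the middle step, 2 over days 0 to 8 and 3 over the series, and 1 and 2 for last minus middle and middle minus first step. On 12 scanner files the counts were 0 at the first step, 0 at the middle step, 0 over days 0 to 8, 2 over the series, and 1 and 0 for the step differences. At the last step the planned correction gave -0.44 for YAB5 and -0.15 for INO, both under the 1.8-fold minimum, and -0.89 for FIL, beyond it. That correction had failed on some arrays, where spots with a very high local background raised the fitted noise SD. The lowest value after subtraction, -463289, was in set 1 of day 4 over day 2. The noise SD of that array was 3884, and its ratios correlated with the deposited ones at 0.224. Set 1 of day 8 over day 4 went down to -329411.5, with a noise SD of 4085 and a correlation of 0.189. An alternative added after this was seen left out the marked spots, which put the noise SD between 0.519 and 6.97 and the correlations between 0.846 and 0.907. It called 1, 4 and 2 members at the 3 steps, 3 over days 0 to 8 and 5 over the series, and 5 and 6 for the step differences. Compared with the values of the report, it lost the calls of YAB3 at the middle step, of INO at the last step and in last minus middle step, and of YAB5 over days 0 to 8, and it newly called CRC higher in last minus middle step (0.69, limma adjusted p = 0.0401), and INO higher (0.72, adjusted p = 0.0277) and YAB5 lower (-0.53, adjusted p = 0.0320) in middle minus first step. YAB5 was also called lower in middle minus first step with array medians set to 0 (-0.37, adjusted p = 0.0349). Without the fold minimum, 2 members were called at the first and 5 at the last step. When each set was left out in turn, 1 member was called at the first step, 4 to 5 at the middle and 3 at the last step, 3 to 4 over days 0 to 8, 6 over the series, and 4 to 5 and 4 for the step differences. The replicate block left 1, 5 and 3 members called at the 3 steps. The first step of YAB3 turned sign without being called: it was 0.10 with normexp and loess on 10 arrays, 0.11 without marked spots, 0.088 with array medians set to 0, and between -0.066 and 0.036 when each set was left out. Of 324 values (18 gene changes under each alternative), 298 kept direction and call. This total includes alternatives that left the values themselves unchanged, such as leaving out the dye term, adding blocks or keeping marked spots. Of the 18 values, 10 kept direction and call with the planned normexp on 10 arrays, 9 on 12 scanner files and 15 without marked spots. The cause of the differences was not tested. INO at day 8 is limited by signal over background.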
